A study of Mus musculus with 2 samples.

Results

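The genes described here are 10 genes that mark tissue-resident macrophages or serve them in taking up material: Mrc1, Cd163, Cd209f, Cd209g, Folr2, Timd4, Lyve1, Retnla, F13a1 and Pf4. They are 10 of the 31253 genes in the count tables and were fixed as a list of names. Their unique molecular identifiers (UMIs, each a tagged RNA molecule) were read in barcodes of 500 or more UMIs and 250 or more genes, of whose UMIs no more than 25% were mitochondrial. Within these, C1q cells were barcodes with at least 10 UMIs of C1qa, C1qb and C1qc together, at most 1 UMI of the B cell gene Cd79a and none of the epithelial gene Epcam. There were 82 C1q cells of 8247 kept cells in the butyrate library and 109 of 6909 in the RA library. Cells with a UMI of the endothelial gene Cdh5, called Cdh5 cells, numbered 129 in the butyrate library and 188 in the RA library, and were used for Lyve1 and Mrc1.

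Whole intestine of mice with wild-type (WT) genotype was dissociated and sequenced as single cells with droplet 3' chemistry. The butyrate library came from 1 mouse on a diet with 1% butyrate, a short-chain fatty acid made by gut bacteria. The RA library came from 1 mouse on standard chow, and the design text names its group CIA, the usual abbreviation of collagen-induced arthritis. The labels do not say whether the mouse on butyrate had arthritis, and age, sex, time on diet and the layers of the gut wall in the preparation are not given in the sources used here. With 1 mouse a group, diet, arthritis, animal and library cannot be told apart. No test between the libraries was made, and the 95% intervals given below cover counting error alone.

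Macrophages of the gut take up dead cells, debris and bacteria. Those next to the epithelium turn over from blood monocytes and present antigen on MHC class II, whereas longer-lived ones sit around vessels, nerves and in the muscle layer. Genes such as Lyve1, Folr2, Cd163 and Timd4 are widely used to mark the longer-lived cells. Mrc1 encodes the mannose receptor, and Cd163 the receptor for haemoglobin bound to haptoglobin. Cd209f and Cd209g belong to the mouse family of C-type lectins related to DC-SIGN. Folr2 encodes folate receptor beta, Timd4 a receptor for phosphatidylserine on dying cells, and Lyve1 a receptor for hyaluronan that is also a marker of lymphatic vessels. Retnla encodes the secreted protein RELM-alpha, F13a1 the A subunit of coagulation factor XIII, and Pf4 the chemokine CXCL4.

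Cd209f and Cd209g are neighbours on mouse chromosome 8, and their upstream sequences are shown because these paralogs had the highest correlation across cells of any pair of the 10 genes, as described below. Retnla is shown because it was the most abundant of the 10 genes. The bases lie 250 to 91 before the RefSeq transcript start (RefSeq, build GRCm38.p6), at chr8:4105855-4106014 on the minus strand for Cd209f, chr8:4134486-4134645 on the plus strand for Cd209g and chr16:48842359-48842518 on the plus strand for Retnla, each written 5′ to 3′ along the gene. Capitals mark the run of 64 bases that Cd209f and Cd209g share, and in Retnla the match to GAGGAA on the opposite strand.
Cd209f: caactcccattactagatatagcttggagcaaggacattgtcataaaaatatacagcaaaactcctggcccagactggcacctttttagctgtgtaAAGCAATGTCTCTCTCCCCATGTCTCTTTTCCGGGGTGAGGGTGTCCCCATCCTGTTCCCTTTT
Cd209g: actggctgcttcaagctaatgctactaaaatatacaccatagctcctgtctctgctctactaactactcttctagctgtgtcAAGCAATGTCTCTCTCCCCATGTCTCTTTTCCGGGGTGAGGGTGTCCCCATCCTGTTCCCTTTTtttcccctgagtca
Retnla: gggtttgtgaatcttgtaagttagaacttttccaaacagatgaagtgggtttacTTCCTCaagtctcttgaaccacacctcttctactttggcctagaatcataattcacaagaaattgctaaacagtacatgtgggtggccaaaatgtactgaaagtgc

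The shared run began at base 97 of the Cd209f window and at base 83 of the Cd209g window, and 85.1% of their aligned bases were identical. In the other 35 pairs among the 9 genes with a window, identity ranged from 40.8% to 63.8% and the longest shared run was 10 bases. Lyve1 has no window in the table used. Both strands were searched. GAGGAA, a core bound by the macrophage factor PU.1, occurred in Mrc1 (2 matches) and Retnla (1 match), and in 15.5% of all 32851 windows. TGCTGA, found in MAF recognition elements, occurred once each in Folr2 and Timd4, and in 10.3% of all windows. A match describes the letters and is not evidence of binding.

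The genes lie on 8 chromosomes, with Folr2 and Lyve1 both on chromosome 7 and Cd209f and Cd209g both on chromosome 8. By GENCODE M21 on GRCm38, Cd209f spans chr8:4102787-4105835 on the minus strand and Cd209g chr8:4134098-4137707 on the plus strand. The start of that Cd209g span is that of a retained-intron transcript. The protein-coding Cd209g transcript starts at 4134652, so the Cd209g window shown lies before the coding transcript and within the retained-intron one. Their longest coding transcripts, of 1186 and 1169 bases, share a run of 416 bases. In the last 500 bases, near the end that 3' chemistry reads, the longest shared run is 29 bases, and how reads of these paralogs were assigned was not tested.

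C1q cells had the RNA of macrophages in both libraries. Lyz2, which encodes lysozyme, was detected in 98.8% of butyrate and 99.1% of RA C1q cells, and Csf1r, the receptor for the macrophage growth factor, in 89.0% and 76.1%. The phagocytosis receptor gene Mertk was detected in 39.0% of butyrate and 32.1% of RA C1q cells. The sum of 15 core macrophage genes was 16679 UMIs per 1000000 UMIs of the cells summed (CPM) in butyrate and 15640.1 CPM in RA C1q cells. Gata6, which defines macrophages of the peritoneal cavity, and Msln of mesothelium had 0 UMIs in both libraries. Of 13 genes of peritoneal or serosal macrophages, Gata6 among them, 4 were at 0 in butyrate but only 1 in RA C1q cells. In RA, Serpinb2 had 164 UMIs in 10 cells, Saa3 114 UMIs with 106 in 1 cell, and Prg4 39 UMIs in 1 cell. Gata6 alone thus does not show that such cells were absent. The platelet gene Ppbp had 0 UMIs in butyrate and 1 UMI in RA C1q cells, which bears on Pf4, a gene that platelets also use.

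C1q cells were 0.994% of kept cells in the butyrate library (exact Clopper-Pearson interval 0.792 to 1.23%) and 1.58% in the RA library (1.30 to 1.90%). The butyrate share was 0.630 of the RA share (0.467 to 0.847). Their median depth was 7118 UMIs in butyrate and 5690 UMIs in RA cells, from 655774 and 748141 UMIs in all. The lowest barcode had 2313 UMIs in the butyrate table and 501 in the RA table, and 15.4% of butyrate and 29.95% of RA barcodes were over the mitochondrial limit. The libraries shared 27 barcodes, 0 of them a C1q cell in either and 1 of them an RA Cdh5 cell. Genes of other cell types moved with the comparison inside the C1q cells. Fibroblast genes held 473 UMIs in butyrate cells, of which 1 cell had 364, against 40 UMIs in RA cells. Genes of serosal macrophages held 55 UMIs in 18 butyrate cells against 596 UMIs in 27 RA cells, of which 1 cell had 331. The part of these cells in the results below was not tested beyond the settings given at the end.

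Retnla was by far the most abundant of the 10 genes. It took 74.5% of the 7013 UMIs of the 10 genes in butyrate C1q cells and 63.7% of the 9120 UMIs in RA C1q cells. Mrc1, F13a1 and Pf4 followed, and Cd209g and Timd4 were the lowest in both libraries. The counts are of 3' ends and carry no length term, so levels of different genes are set side by side as UMI shares.

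**Figure D1:**
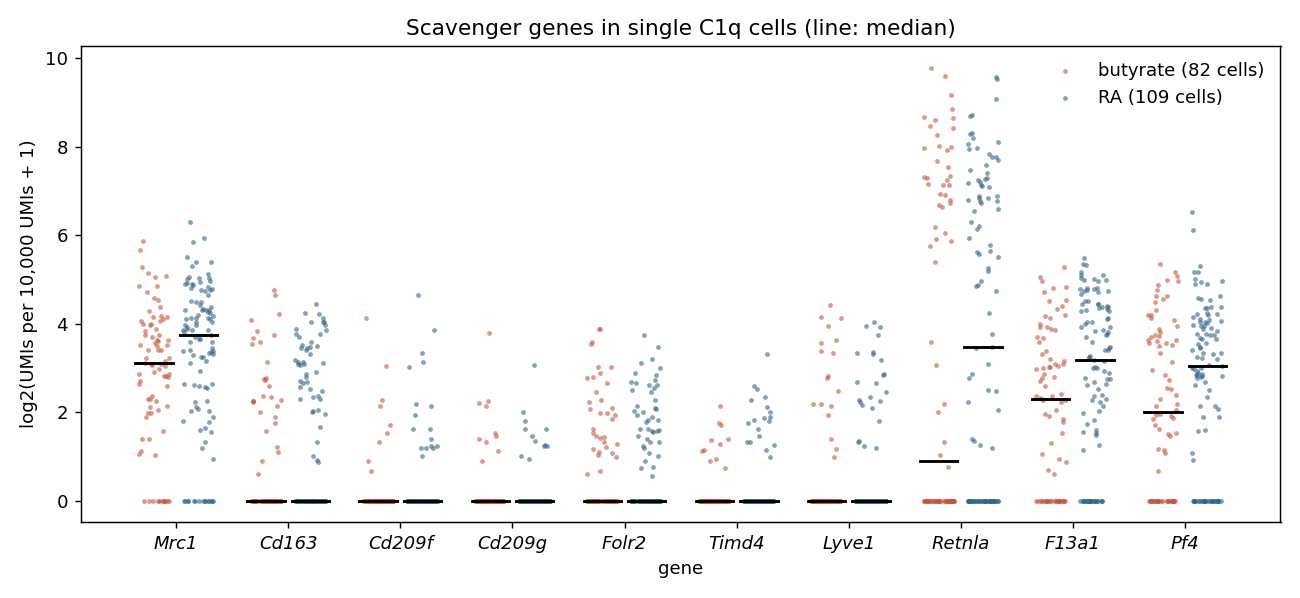
Each point is 1 C1q cell, with log2(UMIs per 10000 + 1) on the vertical axis and the 10 genes along the horizontal axis, butyrate (82 cells) left of RA (109 cells), and black lines are medians. Retnla is at 10 or more UMIs in 36 butyrate and 51 RA cells and at 1 to 9 UMIs in 6 and 16, Mrc1 is above 0 in most cells, and 6 genes have a median of 0 in both libraries.

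Among the lectin and scavenger receptors, Mrc1 was the most widespread. It had 578 UMIs in butyrate C1q cells, 881 CPM (811 to 956), and 1056 UMIs in RA C1q cells, 1412 CPM (1328 to 1499), a ratio of butyrate over RA of 0.624 (0.563 to 0.692). The share of cells with a Mrc1 UMI hardly differed, at 73.2% of butyrate and 71.7% of RA cells after each cell had been thinned to 2000 UMIs, and 86.6% and 86.2% unthinned. Thinning left out 0 butyrate and 10 RA cells that were shallower. The lower level in the butyrate library was therefore a matter of UMIs per cell, with a median of 7.58 UMIs per 10000 in butyrate and 12.4 in RA cells.

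Cd163 had 145 UMIs in butyrate C1q cells, 221 CPM (187 to 260), and 237 UMIs in RA C1q cells, 317 CPM (278 to 360). The ratio was 0.698 (0.564 to 0.862), and 28.0% of butyrate and 39.4% of RA cells had a UMI after thinning, against 35.4% and 45.9% unthinned. Fewer than 1 in 2 C1q cells thus had detectable Cd163 RNA in either library. Cd209f had 21 UMIs in 9 butyrate cells and 69 UMIs in 17 RA cells, 32.02 and 92.2 CPM. Its ratio of 0.347 (0.202 to 0.573) was the lowest of the 10 genes, with 1 cell holding 42.9% of its UMIs in the butyrate and 34.8% in the RA library. A mean over cells gave 0.601, and cells without a UMI of T, B, endothelial or fibroblast genes gave 0.514, both above the 0.5 used below. Its paralog Cd209g had 18 UMIs in 10 butyrate cells and 20 UMIs in 12 RA cells, 27.4 and 26.7 CPM, a ratio of 1.03 (0.512 to 2.04). Without cells that held a UMI of T, B, endothelial or fibroblast genes the Cd209g ratio was 2.16.

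Folr2, Timd4 and Lyve1, genes often used for long-lived gut macrophages, were each found in a minority of C1q cells. Folr2 had 89 UMIs in 34 butyrate cells and 110 UMIs in 44 RA cells, 136 and 147 CPM, with a ratio of 0.923 (0.690 to 1.23). Lyve1 had 88 UMIs in 18 butyrate cells and 80 UMIs in 24 RA cells, 134 and 107 CPM, with a ratio of 1.25 (0.917 to 1.72). Both intervals include 1, and thinning moved the Folr2 ratio to 1.55. Timd4 had 14 UMIs in 11 butyrate cells and 30 UMIs in 19 RA cells, 21.3 and 40.1 CPM, with a ratio of 0.532 (0.261 to 1.04). No cell had more than 2 Timd4 UMIs in the butyrate or 4 in the RA library, so its share of cells, 4.88% of butyrate and 8.08% of RA cells thinned and 13.4% and 17.4% unthinned, moved with depth. Any of these 3 genes was seen in 30.5% of butyrate and 29.3% of RA cells after thinning, and all 3 together in 2.44% and 1.01%.

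Among the secreted products, Retnla was the most abundant and varied widely from cell to cell. It had 5227 UMIs in butyrate C1q cells, 7971 CPM, and 5807 UMIs in RA C1q cells, 7762 CPM, and its ratio of 1.03 (0.989 to 1.07) was near 1. A Retnla UMI was seen in 46.3% of butyrate and 61.6% of RA cells after thinning, and in 51.2% and 61.5% unthinned. Most of that gap lay in cells with 1 to 9 UMIs, 6 in butyrate and 16 in RA, whereas 36 of 82 butyrate and 51 of 109 RA cells had 10 or more. The cells with a UMI had a median of 71.5 UMIs in butyrate and 46 UMIs in RA cells, or 141 and 108 UMIs per 10000. The highest cell had 671 UMIs in the butyrate and 530 UMIs in the RA library.

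F13a1 and Pf4 were both lower in butyrate C1q cells. F13a1 had 381 UMIs in butyrate cells, 581 CPM, and 737 UMIs in RA cells, 985 CPM, a ratio of 0.590 (0.520 to 0.668). Pf4 had 452 UMIs in butyrate cells, 689 CPM, and 974 UMIs in RA cells, 1302 CPM, a ratio of 0.529 (0.472 to 0.593). Both were also seen in fewer butyrate cells after thinning. The share was 52.4% of butyrate and 69.7% of RA cells for F13a1, and 48.8% and 65.7% for Pf4 (unthinned, 69.5% and 77.1% for F13a1 and 67.1% and 73.4% for Pf4). A single RA cell held 137 Pf4 UMIs, 14.1% of the RA total, and a second RA cell held 136. Neither had a UMI of Cd163, Lyve1 or F13a1. The first had 5 Mrc1 and 2 Folr2 UMIs, and the second had 1 Folr2, 4 Timd4 and 81 Retnla UMIs. The setting without the highest cell of each library leaves out only the first of them, and the Pf4 ratio without both was not tested.

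Summed over the 10 genes, butyrate C1q cells had 10694 CPM and RA C1q cells 12190.2 CPM, a ratio of 0.877 (0.850 to 0.905). The near-equal Retnla level carried that sum, and the other 9 genes together had 2724 CPM in butyrate and 4428 CPM in RA cells, a ratio of 0.615 (0.580 to 0.652). Leaving Retnla out is a choice made after its values were seen. Of the 10 genes, 1 (Cd209f) had a ratio of at most 0.5 and 0 had a ratio of at least 2. Over all 6844 genes with at least 20 UMIs, 5.17% were at or below 0.5 and 3.17% at or above 2, so these counts say little about the 10 genes. Their median log2 ratio was -0.60, against -0.09 over all genes. The mean over cells reversed the sum, with a ratio of 1.03, and the sum of cells thinned to 2000 UMIs gave 0.972 (0.918 to 1.03), so the direction of the summed level depends on how cells are weighted.

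Other receptors and products of the same kind were compared in the same way. Of 27 other scavenger and lectin receptor genes, 23 had enough UMIs, and 0 were at least 2-fold higher while 3 were at or below 0.5, with a median log2 ratio of -0.29. These 3, named after their values were seen, were the lectin genes Cd209a (0.473) and Cd209d (0.248) and Cd5l (0.0380), a secreted protein of macrophages. Cd209d had 5 UMIs in butyrate and 23 UMIs in RA cells. Cd5l had 1 UMI in butyrate and 30 UMIs in RA cells, 28 of them in 1 RA cell. Of the 24 other resident macrophage genes, 0 were higher and 2 lower, Ednrb (0.409) and Fcna (0.2504), with a median of -0.30. The 3 of them with the most UMIs were Apoe, which carries lipids, Selenop, which carries selenium, and the chemokine gene Ccl8. Apoe had 9369 CPM in butyrate and 10869.6 CPM in RA cells, Selenop 1426 and 2021 CPM, and Ccl8 1176 and 1723 CPM. Of 20 genes of lamina propria macrophages, including MHC class II, 0 passed either fold, and the median was 0.32. In the list of heme and iron genes 1 of 14 was higher, Spic, with 14 UMIs in butyrate and 7 UMIs in RA cells. Hmox1, the enzyme that breaks down heme, had 1223 CPM in butyrate and 1064 CPM in RA cells. Of 10 genes of alternative activation, the programme to which Retnla and Mrc1 are usually assigned, 2 were higher and 0 lower, and the median was -0.56. The higher genes were Ear2 (3.55) and Tgm2 (3.42). Ear2 had 28 UMIs in 5 butyrate cells, 12 of them in 1 cell, against 9 UMIs in 4 RA cells. Tgm2 had 66 UMIs in 17 butyrate cells against 22 UMIs in 15 RA cells. These few genes too are named after their values were seen.

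The 10 genes differed in where else their UMIs lay outside the C1q cells. For Mrc1, Cd163, Cd209f, Cd209g, Retnla, F13a1 and Pf4, between 63.7% and 83.1% of the kept UMIs were in C1q cells in each library. Lyve1 lay mainly elsewhere, with 11.4% of its butyrate and 5.27% of its RA UMIs in C1q cells. Cdh5 cells without C1q, Cd79a or Epcam held 46.2% of its butyrate and 66.4% of its RA UMIs. For Timd4, 29.8% of the butyrate and 37.0% of the RA UMIs were in C1q cells. A gate of Flt3-positive dendritic cells without C1q held 51.1% of butyrate and 30.9% of RA Timd4 UMIs, from 4 cells of 64 in the butyrate and 4 cells of 62 in the RA library, at 51.1 and 62.9 CPM. In each library 1 of those cells held most of them, with 15 UMIs in butyrate and 16 UMIs in RA. Folr2 had 49.2% of its butyrate and 52.6% of its RA UMIs in C1q cells, and the B cell gate held 20.4% and 13.4%, from 35 butyrate and 28 RA cells.

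Most of the Mrc1 and Retnla UMIs outside all gates sat in barcodes with some C1q RNA. Of 190 such Mrc1 UMIs in the butyrate library, 148 were in barcodes with a C1q UMI, as were 350 of 446 in the RA library. For Retnla the counts were 1339 of 1477 in the butyrate and 2028 of 2801 in the RA library. The C1q, Cd79a and Epcam limits thus left barcodes with some C1q RNA out. Cells just inside it, with 10 to 19 C1q UMIs, numbered 25 in butyrate and 42 in RA and had 861 and 1301 CPM of Mrc1. Cells just outside, with 5 to 9 C1q UMIs, numbered 3 in butyrate and 28 in RA and had 497 and 772 CPM of Mrc1, and 1950 and 9825 CPM of Retnla.

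Shares in B cells were read as a background, which free RNA in the droplets can give. In B cells Retnla was seen in 2.396% of 3506 butyrate and 5.62% of 2225 RA cells, at median depths of 4605 and 4200 UMIs. Mrc1 was seen in 0.285% of butyrate and 0.854% of RA B cells, Pf4 in 0.428% and 1.44%, and F13a1 in 0.171% and 0.674%. Folr2 was seen in 0.998% (0.696 to 1.39%) of butyrate and 1.26% (0.838 to 1.81%) of RA B cells. In T cells, which were deeper, its share was 0.0837% (0.00212 to 0.465%) in butyrate and 0.935% (0.344 to 2.02%) in RA, so its butyrate B cell share is not read as background. Cd163, Cd209f and Cd209g were lower, with 0.225% of RA B cells for Cd163 as the highest share. Timd4 had 0 of 3506 butyrate and 0 of 2225 RA B cells, which allows a share of up to 0.0856% and 0.135% at 3 counts (exact Clopper-Pearson upper limits 0.105% and 0.166%). In epithelial cells (969 butyrate and 791 RA cells, medians of 6326 and 8184 UMIs) Retnla was seen in 3.096% of butyrate and 5.18% of RA cells, and Mrc1 in 1.34% and 3.41%. These shares lie far below the shares in C1q cells, including the 6.10% of butyrate and 9.09% of RA C1q cells with thinned Cd209f and the 7.32% and 4.04% with thinned Cd209g. The B cell share was the higher one in RA for Mrc1, Retnla, F13a1 and Pf4. Subtracting the B cell level left the ratio of each gene within its counting interval.

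Most C1q cells carried several of the 10 genes at once. After thinning, 46 of 82 butyrate cells had at least 3 of them, 56.1% (44.7 to 67.0%), against 67 of 99 RA cells, 67.7% (57.5 to 76.7%). The ratio of shares, 0.829 (0.655 to 1.05), has an interval that includes 1, but another random thinning gave 0.731 (0.575 to 0.930), which does not. Unthinned, 57 of 82 butyrate cells and 85 of 109 RA cells reached 3, 69.5% and 78.0%. The median number was 3 in butyrate and 4 in RA cells thinned, and 4 in both unthinned. None of the 10 was seen in 12 butyrate cells and 9 RA cells thinned, 14.6% and 9.09%. Unthinned the order was the other way, with 5 of 82 butyrate and 13 of 109 RA cells, 6.10% and 11.9%. All 10 were seen together in 1 butyrate and 4 RA cells before thinning.

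**Figure D2:**
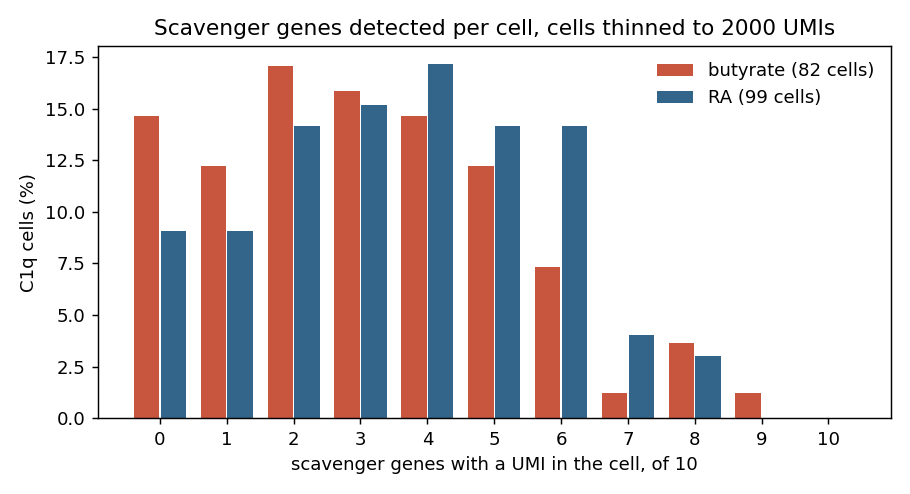
Bars give the share of C1q cells (vertical axis, percent) with each number of the 10 genes detected (horizontal axis) after thinning to 2000 UMIs, butyrate (82 cells) left of RA (99 cells). Cells spread over 0 to 6 genes without a gap, with 56.1% of butyrate and 67.7% of RA cells at 3 or more.

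The genes were detected in the same cells more often than their shares alone would give. Of 45 pairs, 39 had a ratio of observed to expected cells above 1 in both libraries after thinning, and 10 had a ratio of at least 1.5 in both. Pairs of other genes were not counted in the same way, so these counts are not read as particular to the 10 genes. Cells differ in depth and RNA content, so ratios a little over 1 are read as no pattern. The median ratio over pairs was 1.47 in butyrate and 1.33 in RA cells. Cells of 1 library share an animal and a library, so no p-value is given.

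Cd209f and Cd209g formed the tightest pair. Both were seen in 3 butyrate cells where 0.366 were expected, and in 2 RA cells where 0.364 were expected. Unthinned, 7 butyrate cells had both against 1.10 expected, and 10 RA cells against 1.87. Across cells the Pearson correlation of log2(UMIs per 10000 + 1) was 0.86 over 82 butyrate cells and 0.74 over 109 RA cells. These cells share library and depth range, the counts are few, and the assignment of reads between the paralogs was not tested.

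Lyve1 joined Timd4, Folr2 and Cd163. Timd4 and Lyve1 were seen together in 2 butyrate cells against 0.634 expected and in 4 RA cells against 0.970 expected. Folr2 and Lyve1 were together in 8 butyrate cells against 3.01 expected and in 5 RA cells against 2.18. Cd163 and Lyve1 were together in 8 butyrate cells against 3.65 expected and in 10 RA cells against 4.73. Unthinned, 14 of 18 Lyve1 cells in the butyrate and 23 of 24 in the RA library had Cd163. Lyve1 cells, also unthinned, overlapped with other genes of the list. Retnla was in 16 of 18 butyrate cells against 9.22 expected and in 23 of 24 RA cells against 14.8. F13a1 was in all 18 butyrate cells against 12.5 expected and in all 24 RA cells against 18.5. Thinned, the ratios to expectation were 1.99 in butyrate and 1.49 in RA for Retnla, and 1.47 and 1.32 for F13a1. Neither pair reached 1.5 in both libraries. After thinning, Cd163 was seen in 8 of 13 butyrate and 10 of 12 RA Lyve1 cells. Correlations were 0.58 in both libraries for Cd163 with Lyve1, and 0.64 in butyrate and 0.48 in RA cells for Folr2 with Lyve1. For F13a1 with Lyve1 they were 0.63 and 0.52. Pairs without Lyve1 were as close. Cd163 and Folr2 were together in 11 butyrate cells against 5.33 expected and in 16 RA cells against 7.09. Their correlations were 0.59 and 0.62.

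Retnla was hardly correlated with the Cd209 pair. Its correlation was -0.02 in butyrate and 0.01 in RA cells with Cd209f, and 0.02 and 0.07 with Cd209g. With F13a1 it was 0.52 in butyrate and 0.54 in RA cells. Unthinned, Retnla and Cd209f were together in 5 butyrate cells against 4.61 expected and in 13 RA cells against 10.4. Retnla and Cd209g were together in 7 butyrate cells against 5.12 expected and in 9 RA cells against 7.38. Retnla and the Cd209 pair thus did not exclude each other. Cd209g and Timd4 was the pair below expectation in both libraries, with 0 cells thinned against 0.293 expected in butyrate and 0.323 in RA, numbers too small to read. Unthinned the pair was above expectation, with 3 butyrate and 5 RA cells.

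**Figure D3:**
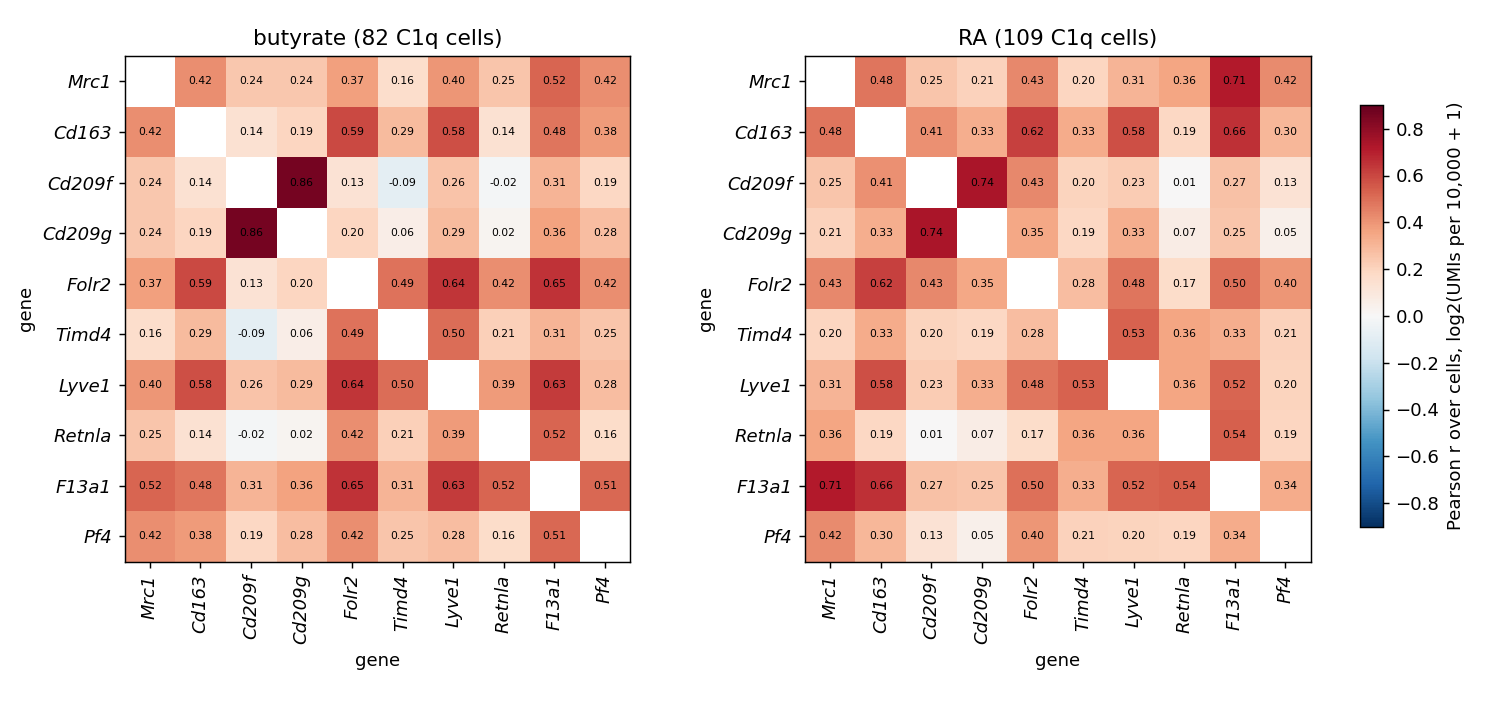
Each square gives the Pearson correlation (colour scale and number) of log2(UMIs per 10000 + 1) between 2 of the genes across C1q cells, butyrate (82 cells) on the left and RA (109 cells) on the right. Cd209f with Cd209g is the darkest square in both panels (0.86 and 0.74), and Retnla with either Cd209 gene is near 0.

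Cells with Retnla held more Ccr2 and less Cx3cr1 than other C1q cells in both libraries. Cells in which Retnla was detected after thinning (38 against 44 without in butyrate, 61 against 38 in RA) were compared within each library over all their UMIs. Ccr2, the chemokine receptor of monocytes newly come from blood, had 606 CPM in butyrate Retnla cells against 131 CPM in cells without, a ratio of 4.63 (3.36 to 6.45). In the RA library it had 430 CPM against 204 CPM, a ratio of 2.11 (1.59 to 2.84). Cx3cr1, the fractalkine receptor of mature gut macrophages, was lower in Retnla cells, at 43.8 against 178 CPM in butyrate and 39.1 against 277 CPM in RA cells. Its ratios were 0.246 (0.118 to 0.468) and 0.141 (0.0776 to 0.242). The class II genes of lamina propria macrophages differed less in butyrate, with ratios of 0.909 for H2-Ab1, 0.927 for H2-Aa and 0.921 for Cd74. In RA these were 0.594, 0.620 and 0.508. The same Retnla cells held more Lyve1, with ratios of 12.6 in butyrate and 8.39 in RA, and more F13a1, with 3.83 and 3.20. Ccr2 and Cx3cr1 are named by choice after their values were seen, and Retnla cells were also shallower, with median depths of 6359.5 against 8611 UMIs in butyrate and 5206 against 7715.5 UMIs in RA cells.

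Cells that kept a Cd209 lectin UMI after thinning had no Ccr2 RNA detected in either library. Ccr2 had 0 UMIs in the 8 butyrate cells and 0 UMIs in the 11 RA cells with Cd209f or Cd209g after thinning. The other C1q cells had 205 Ccr2 UMIs, 336 CPM, in butyrate and 243 UMIs, 371 CPM, in RA. Unthinned, 12 butyrate and 19 RA C1q cells had Cd209f or Cd209g, so the other cells include some with a lectin UMI lost in thinning. The upper bound of the ratio's interval was 0.238 in butyrate and 0.120 in RA. Cx3cr1 had ratios of 1.40 (0.582 to 2.90) in butyrate and 2.399 (1.47 to 3.79) in RA. Lyve1 had 6.11 (3.76 to 9.72) and 1.53 (0.773 to 2.79), and F13a1 2.3999 (1.79 to 3.18) and 1.71 (1.41 to 2.07). Retnla was at 4235 against 8256 CPM in butyrate and at 2392 against 8478 CPM in RA cells, ratios of 0.513 (0.443 to 0.592) and 0.282 (0.244 to 0.325). Mrc1 was higher in the lectin cells, with ratios of 2.20 in butyrate and 2.39 in RA, and so was Cd163, with 3.13 and 2.71. The related lectin gene Cd209b was higher as well, with 10 of 23 butyrate and 16 of 42 RA UMIs in the lectin cells, ratios of 10.1 (3.95 to 24.9) and 4.84 (2.43 to 9.37). With 8 and 11 cells, single cells weigh heavily in each of these values.

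Cells with Lyve1 detected after thinning were poor in MHC class II RNA. Unthinned, 18 butyrate and 24 RA C1q cells had a Lyve1 UMI, so the others below include cells with Lyve1 lost in thinning. H2-Ab1, a class II beta chain, had 2688 CPM in 13 butyrate Lyve1 cells against 5000.3 CPM in 69 others, a ratio of 0.538 (0.466 to 0.618). In RA cells it had 830 CPM in 12 Lyve1 cells against 4068 CPM in 87 others, a ratio of 0.204 (0.151 to 0.270). Cd74, the class II invariant chain, had ratios of 0.469 in butyrate and 0.303 in RA. Cx3cr1 had 1 UMI in the Lyve1 cells of each library, against 82 UMIs in other butyrate and 106 UMIs in other RA cells. The ratios were 0.0883 (0.00221 to 0.506) and 0.106 (0.00266 to 0.604). Retnla was higher in Lyve1 cells, with ratios of 2.76 in butyrate and 1.81 in RA.

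For Timd4, also split by detection after thinning, the class II genes ran in opposite directions in the libraries. H2-Ab1 had a ratio of 1.27 between 4 Timd4 cells and 78 others in butyrate and of 0.154 between 8 and 91 in RA. Cx3cr1 had ratios of 2.79 in butyrate and 0.155 in RA, the second from 1 UMI. Ccr2 had 0 UMIs in the 4 butyrate and 2 UMIs in the 8 RA Timd4 cells. Only 14 butyrate and 30 RA Timd4 UMIs stand behind this split, and no order is read from it.

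In both libraries, most of the other resident macrophage genes were higher in C1q cells with at least 3 of the 10 genes. These cells (46 in butyrate and 67 in RA) were set against C1q cells with at most 1 (22 and 18), within each library. The cells rich in the 10 genes were shallower, with median depths of 6270 against 11129 UMIs in butyrate and 5690 against 8443 UMIs in RA cells. The sum of the 10 genes defines this split and is not read. Over all genes with at least 20 UMIs, 11.6% were at least 2-fold higher and 10.4% at or below 0.5 in butyrate (4104 genes), and 18.2% and 12.6% in RA (4507 genes).

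Of the other resident macrophage genes, 14 of 23 were at least 2-fold higher in butyrate and 18 of 24 in RA, and 0 were at or below 0.5 in either. The median log2 ratio was 1.71 in butyrate and 2.09 in RA, against -0.02 and 0.00 over all genes. Selenop had 2450.1 against 430 CPM in butyrate, a ratio of 5.70, and 2935 against 430 CPM in RA, a ratio of 6.83. The chemokine gene Ccl8 had 2087 against 103 CPM in butyrate, a ratio of 20.4 with 24 of the 26 UMIs of the cells with at most 1 in a single cell, and in RA 1193 UMIs against 2 UMIs, a ratio of 266 (73.5 to 2200.4). Apoe did not follow, with ratios of 0.827 in butyrate and 1.20 in RA. Further genes, chosen after their values were seen, were Gas6, the ligand of Mertk, with ratios of 7.05 in butyrate and 90.1 in RA (1 UMI in the RA cells with at most 1), Maf, a transcription factor of resident macrophages, with 3.28 and 6.58, and Cbr2, a carbonyl reductase. Cbr2 had 134 against 7.89 CPM in butyrate, and in RA 156 CPM against 0 UMIs, at least 9.82-fold higher against a floor of 3 counts over the group.

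Genes of Cx3cr1-positive lamina propria macrophages went the other way. In butyrate 10 of 20 were at or below 0.5 and 0 at least 2-fold higher, and in RA 13 of 19 and 0. The median log2 ratio was -1.20 in butyrate and -1.45 in RA, or -1.22 and -1.46 with genes at 0 set to the floor. Cx3cr1 itself did not reach 0.5, with ratios of 0.702 in butyrate and 0.649 in RA. It was seen in 19 of 46 against 11 of 22 butyrate cells and in 17 of 67 against 8 of 18 RA cells. The abundant class II genes differed less as well. Cd74 had ratios of 0.818 in butyrate and 0.611 in RA, H2-Aa of 0.891 and 0.830, and H2-Ab1 of 0.798 and 0.526. Larger differences, named after their values were seen, were in less abundant genes. Il22ra2, which encodes the soluble decoy receptor of IL-22, had 0 UMIs in cells with at least 3 of the 10 genes in both libraries. Among cells with at most 1 it had 139 UMIs in 4 of 22 butyrate cells and 234 UMIs in 4 of 18 RA cells, at least 55.9-fold and at least 174.8-fold lower in the cells rich in the 10 genes. In each library 1 cell held most of these UMIs, 85 in butyrate and 132 in RA, and without it the bounds were 22.4-fold and 90.9-fold. Acp5, an acid phosphatase, was more widespread: it was seen in 5 of 46 against 10 of 22 butyrate cells and in 4 of 67 against 12 of 18 RA cells, with ratios of 0.0286 and 0.0363. Mmp12, a metalloproteinase of macrophages, had 0 against 111 UMIs in butyrate, at least 44.6-fold lower, and a ratio of 0.0353 in RA.

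**Figure D4:**
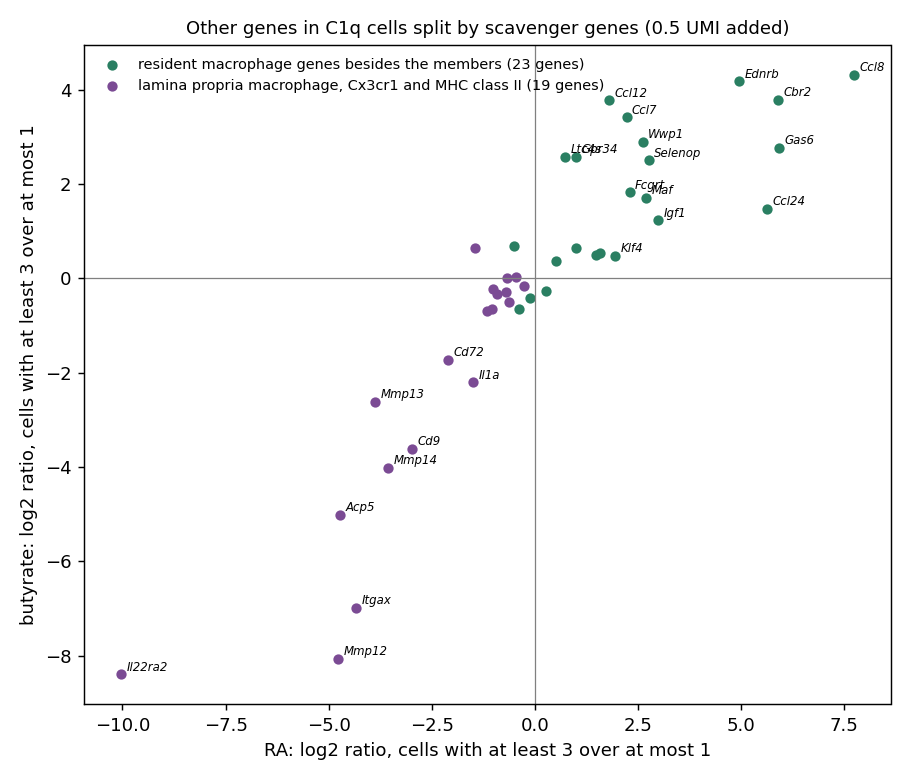
Each point is 1 gene, with the log2 ratio of its CPM in C1q cells with at least 3 of the 10 genes over cells with at most 1 (0.5 UMI added to each count) in the RA library on the horizontal and in the butyrate library on the vertical axis. Green points are other resident macrophage genes and lie mostly at the upper right, as Ccl8 does, and purple points are lamina propria macrophage genes and lie mostly at the lower left, as Il22ra2 does.

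Other gene groups split less evenly. Among 18 other scavenger and lectin receptor genes in butyrate, 7 were higher and 3 lower, and among 21 in RA, 7 and 3. Clec10a, a galactose-binding lectin, had ratios of 8.74 in butyrate and 11.998 in RA, and Cd36, a scavenger receptor for lipids, of 4.15 and 1.84. The receptors that ran the other way in both libraries, named after their values were seen, were Axl (0.251 and 0.206), Havcr2 (0.101 and 0.178) and Olr1 (0.0957 and 0.253). Of the heme and iron genes, 3 of 11 were higher and 1 lower in butyrate, and 6 of 12 and 0 in RA. Hmox1 had 1966 against 422 CPM in butyrate, a ratio of 4.66, and 1567 against 148 CPM in RA, a ratio of 10.55. The iron store Fth1 was lower, with ratios of 0.459 in butyrate and 0.616 in RA. Lyz2 was lower too, at 5420.3 against 15023 CPM in butyrate and 5093 against 13885 CPM in RA, ratios of 0.361 and 0.367.

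Immediate early and heat shock genes, which tissue dissociation can raise, moved with the same split. Of 14, 4 were at least 2-fold higher in butyrate and 12 in RA. Their sum was 39342 against 23507 CPM in butyrate and 32275 against 8719 CPM in RA. The heat shock gene Hspa1a had ratios of 2.06 in butyrate and 7.36 in RA. Fibroblast genes were higher in the butyrate cells with at most 1, at 1787 CPM against 62.2 CPM, and 1 cell held most of those UMIs. Genes of T and innate lymphoid cells were at 39.3 against 323 CPM in butyrate and 59.2 against 122 CPM in RA. Genes of serosal macrophages were at 85.0 against 114 CPM in butyrate and 509 against 31.8 CPM in RA. The part of depth, dissociation genes and these other genes in the gene differences was not tested.

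The genes whose RNA followed the 10 genes most closely across cells were ranked among 5524 genes by the lower correlation of the libraries. Ccl6 and Ccl2, both chemokines, had correlations of 0.64 and 0.50 in butyrate and 0.62 and 0.60 in RA. Ahnak, a large scaffold protein, had 0.53 in butyrate and 0.67 in RA. Cd36 (0.55 and 0.48), Clec10a (0.47 and 0.44) and Hmox1 (0.43 and 0.64) also ranked among the first 10, with Rnase2a, Psd3, Pid1 and Ednrb. Without Retnla the first 4 were Selenop (0.62 in butyrate and 0.61 in RA), Gas6 (0.61 and 0.57), Psd3 and Maf (0.54 and 0.72). The points are 82 butyrate and 109 RA cells that share animal, library and depth. The summed level without Retnla itself correlated with the log of total UMIs at -0.43 in butyrate and 0.20 in RA.

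Among Cdh5 cells, most Lyve1 RNA lay in those with lymphatic genes in both libraries. The gate needs only 1 Cdh5 UMI. Of 129 butyrate Cdh5 cells, 24 had more than 1 Cd79a UMI, 21 an Epcam UMI and 3 at least 10 C1q UMIs. Of 188 RA Cdh5 cells these numbers were 20, 23 and 4. Within all 3 limits were 85 butyrate and 144 RA cells. Over all 129 butyrate Cdh5 cells Lyve1 had 505 CPM (465 to 548), and over all 188 RA Cdh5 cells 759 CPM (719 to 801), a ratio of 0.666 (0.603 to 0.735). It was seen in 20.9% of butyrate (14.3 to 29.0%) and 42.6% of RA Cdh5 cells (35.4 to 49.96%), or 19.4% and 38.5% after thinning. Cells with a UMI of Prox1 or Mmrn1, both genes of lymphatic endothelium, were 38 of the butyrate Cdh5 cells, 29.5% (21.8 to 38.1%), and 88 of the RA Cdh5 cells, 46.8% (39.5 to 54.2%). Within these cells Lyve1 had 1547 CPM in butyrate and 1547 CPM in RA, a ratio of 1.00 (0.905 to 1.10). The share of these cells with a Lyve1 UMI was lower in butyrate, at 65.8% against 87.5% in RA, or 60.5% and 78.4% after thinning. A single cell held 125 of the 574 Lyve1 UMIs in butyrate and 123 of the 1330 in RA. Outside the Prox1 or Mmrn1 cells Lyve1 had 6.46 CPM in butyrate and 8.86 CPM in RA. With C1q, Cd79a and Epcam limits added, a setting chosen after seeing the data, the ratio within Prox1 or Mmrn1 cells was 0.834, so equality there depends on which barcodes are kept.

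Lyve1 cells were rich in lymphatic genes. Of 12 lymphatic endothelial genes, 12 were at least 2-fold higher in Lyve1-detected than in other Cdh5 cells of both libraries, against 11.1% of 7457 genes in butyrate and 11.1% of 9133 genes in RA. The most abundant, the chemokine gene Ccl21a, had 17700 CPM against 1.14 CPM in butyrate and 17484 against 32.8 CPM in RA. Of the blood endothelial genes, 11 of 13 were at or below 0.5 in butyrate and 10 of 12 in RA, against 16.9% and 13.9% of all genes. Plvap, of fenestrated blood vessels, had 93.3 against 1623 CPM in butyrate and 92.1 against 1156 CPM in RA. Epithelial genes moved with the Lyve1 cells in opposite directions, at 1459 against 168 CPM in butyrate and 604 against 1961 CPM in RA. Adipocyte genes were at 694 against 15292 CPM in butyrate and 2183 against 11955 CPM in RA. Of these, Fabp4, also used by capillary endothelium, made 679 against 14965.5 CPM in butyrate and 854 against 11879 CPM in RA. Gene by gene the libraries ran in opposite directions. In butyrate 4 of 4 adipocyte genes were at or below 0.5, whereas in RA 4 of 5 were at least 2-fold higher in Lyve1 cells and 1 at or below 0.5. Fibroblast genes were at 18.7 against 631 CPM in butyrate and 327 against 416 CPM in RA. Plasma cell genes were at 179 against 413 CPM in butyrate and 146 against 3132 CPM in RA, and B cell genes at 108 against 533 CPM and 75.6 against 284 CPM. The part of these genes was not tested.

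Mrc1, which lymphatic endothelium also uses, differed between the libraries in these same cells. In Prox1 or Mmrn1 cells it had 15 UMIs in 7 of 38 butyrate cells, 40.4 CPM (22.6 to 66.7), and 98 UMIs in 45 of 88 RA cells, 114 CPM (92.6 to 139). The ratio was 0.355 (0.191 to 0.614), and 5.26% of butyrate and 19.3% of RA cells had a UMI after thinning, against 18.4% and 51.1% unthinned. Of the Cdh5 cells with Mrc1, 9 of 10 in butyrate and 45 of 50 in RA also had Lyve1. At least 10 C1q UMIs were found in 2 of those 9 butyrate and 1 of those 45 RA cells. Outside Prox1 and Mmrn1 cells, Mrc1 had 37.4 CPM in butyrate and 110 CPM in RA, from 3 and 5 cells. All 3 of these butyrate cells and 4 of the 5 RA cells also had at least 10 C1q UMIs. The remaining RA cell had 2 Mrc1 UMIs. Those levels thus come mainly from cells with C1q RNA and are not read as endothelial. Over all Cdh5 cells, with these cells included, the ratio was 0.344 (0.242 to 0.479). With the C1q, Cd79a and Epcam limits it was 0.144 (0.0559 to 0.310) over all Cdh5 cells and, chosen after seeing the data, 0.212 (0.0823 to 0.457) in Prox1 or Mmrn1 cells.

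**Figure D5:**
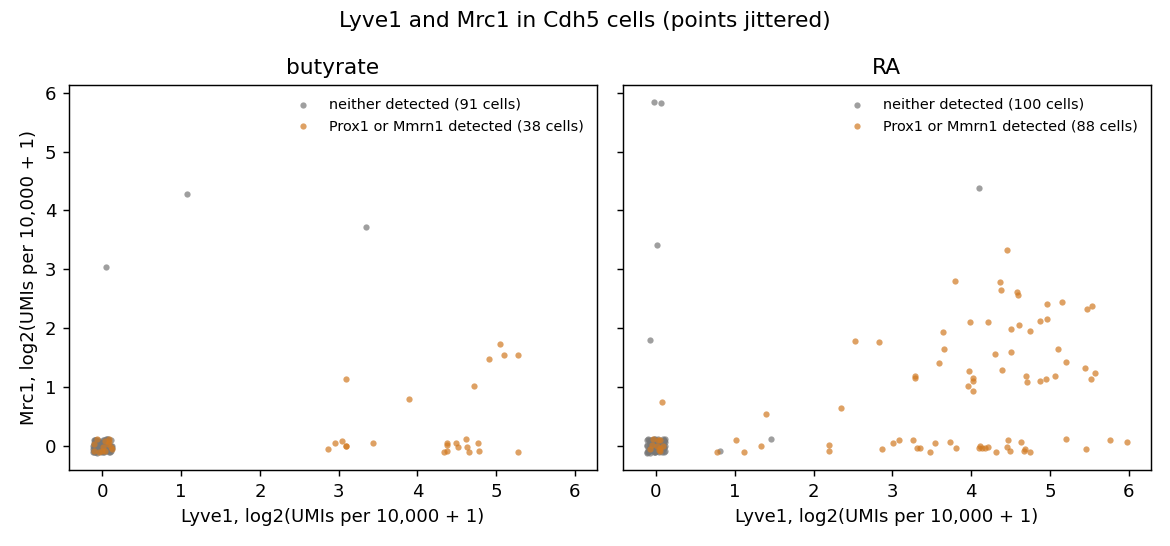
Each point is 1 Cdh5 cell (slightly jittered), with Lyve1 on the horizontal and Mrc1 on the vertical axis as log2(UMIs per 10000 + 1), butyrate left of RA, and orange points have a UMI of Prox1 or Mmrn1. Most orange cells have Lyve1, though 13 of 38 butyrate and 11 of 88 RA ones do not, and 7 butyrate and 45 RA ones are above 0 for Mrc1.

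The other 8 genes were nearly absent from lymphatic cells. Cd163, Cd209g and Timd4 had 0 UMIs in the Prox1 or Mmrn1 cells of both libraries, which at 3 counts allows up to 7.89% of butyrate and 3.41% of RA cells with a UMI. Cd209f, Folr2 and F13a1 had 0 UMIs in butyrate and 1 UMI each in RA, Retnla had 1 and 3 UMIs, and Pf4 had 3 UMIs in each. Lyve1 and Mrc1 were the genes among the 10 with more than 3 UMIs in these cells in both libraries.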

How the data were processed

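Droplet 3' single-cell RNA sequencing (Chromium Next GEM kit v3.1, per the labels' protocols) gave 1 library from the butyrate mouse and 1 from the RA mouse. The deposited tables hold raw counts of UMIs per gene and barcode, with no normalization, of 9959 butyrate and 10140 RA barcodes, 67894477 and 61912439 UMIs. Per the file headers the counts come from Cell Ranger 7.1.0, whereas the submitters' processing notes name Cell Ranger 6.0.1, Seurat 4.0.3 and 4.0.4 and mm10. Whether intronic reads were counted is not given in the sources used here.

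UMIs of a gene were summed over the cells of a gate and library and divided by all their UMIs (CPM, exact Poisson 95% intervals). Shares have exact Clopper-Pearson intervals, and ratios, butyrate over RA or rich over poor cells, exact conditional binomial ones. Both cover counting error only, since a UMI count of 1 mouse has no replicate. Ratios over all genes used those with at least 20 UMIs in both groups together, and a ratio of at least 2 or at most 0.5 was counted. A count of 0 was set to a floor of 3 counts over the group for bounds. Shares of cells with a UMI were compared after thinning each cell to 2000 UMIs, with a fixed random seed. Median depth was 5141 UMIs in butyrate and 4712 UMIs in RA kept cells. Scrublet's own threshold marked 2 butyrate and 0 RA barcodes and so did not work; removal of the 544 butyrate and 382 RA barcodes with the highest scores was an alternative. The ratio and its interval were tested on simulated counts. Python 3.11.15, numpy 2.4.6, scipy 1.17.1, pandas 2.3.3, scanpy 1.11.5, Biopython 1.88 and matplotlib 3.10.9 were used.

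The genes, lists and tests were chosen with earlier results of these data known. Genes named besides the 10 are the 10 most like them across cells, by the lower of the libraries' Pearson correlations, up to 3 genes with the most UMIs of each list, and those said to be chosen after their values were seen. Alternatives varied the C1q, mitochondrial, depth and doublet limits, thinning, cell weighting, the highest cell and subtraction of the B cell level.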

Additional observations from a re-analysis of the deposited data

How the results depend on the processing

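No paired analysis was possible because each group has 1 sample. The ratio of the 10 summed genes in C1q cells, 0.877 as reported, was 0.909 with at least 20 C1q UMIs, 0.838 with no Cd79a or Epcam limit, 0.956 with no UMI of T, B, endothelial or fibroblast genes, 0.934 with a mitochondrial limit of 10%, 0.972 in cells thinned to 2000 UMIs, 0.848 without the highest cell of each library, and reversed to 1.03 as a mean over cells. The share with at least 3 genes, 0.829, was 0.615 (0.429 to 0.881) when a gene needed 2 UMIs, and 0.615 to 0.894 over 14 alternatives. Over 12 alternatives the ratio ran from 0.553 to 0.767 for Mrc1, 0.583 to 0.787 for Cd163, 0.298 to 0.601 for Cd209f, 0.413 to 0.716 for Timd4, 0.515 to 0.705 for F13a1 and 0.497 to 0.733 for Pf4, below 1 throughout. It ran from 1.21 to 1.63 for Lyve1, and on both sides of 1 for Retnla (0.972 to 1.19), Folr2 (0.891 to 1.55) and Cd209g (0.818 to 2.16). Lyve1 in Cdh5 cells, 0.666, was 0.745 without the highest doublet scores, 0.497 as a mean over cells, 0.493 thinned, 0.574 without the highest cells and 0.565 with C1q, Cd79a and Epcam limits. In Prox1 or Mmrn1 cells it was 1.00, and 0.834 with those limits, both chosen after seeing the data. Mrc1 in Cdh5 cells, 0.344, was 0.144 with those limits and 0.212 in Prox1 or Mmrn1 cells with them. The cause of these moves was not tested. With 82 and 109 cells and under 100 UMIs for Cd209f, Cd209g, Timd4 and Lyve1 in each library, these genes had wide counting intervals.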
